A study of Glycine max with 15 samples.

Results

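Legumes admit rhizobia, soil bacteria that fix nitrogen, into root nodules and limit how many nodules form. NFR1 and NFR5 are receptor-like kinases with extracellular LysM domains that together perceive the lipochitooligosaccharide Nod factor of the bacteria, at the root surface. NARK is a leucine-rich-repeat receptor kinase, related to CLAVATA1 of Arabidopsis, that acts in the shoot. It takes part in autoregulation of nodulation, the systemic feedback by which existing nodules hold back new ones, and soybean plants that lack it form too many nodules.

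The 5 soybean genes described here were taken as a fixed list of gene IDs, out of 54175 IDs in the tables. They are NARK (Glyma12g04390), the 2 copies of NFR1 (NFR1a, Glyma02g43860, and NFR1b, Glyma14g05060) and the 2 copies of NFR5 (NFR5a, Glyma11g06740, and NFR5b, Glyma01g38560). The files give no gene names. The reference gene table of assembly Glycine_max_v4.0 carries 4 of these 5 names, NFR1a being the exception, and places each of the 4 on the chromosome that the file gives for the ID. By the coordinates in the files, whose genome build is not given in the sources used here, NARK lies on chromosome 12 (2885423 to 2889443), NFR1a on chromosome 2 (48554183 to 48559779), NFR1b on chromosome 14 (3504623 to 3509324), NFR5a on chromosome 11 (4769999 to 4772217) and NFR5b on chromosome 1 (50625695 to 50629374). No other ID shares one of these intervals.

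The libraries were made from seedlings of Glycine max cultivar Williams 82, 10 days old, with 3 libraries in each of 5 groups. The control group was mock treated. All other groups were given 5 mM propiconazole (Pcz), an inhibitor of the synthesis of brassinosteroid hormones. One received Pcz alone. A second received Pcz with 10 nM brassinolide (BL), an active brassinosteroid, and the remaining ones received Pcz and then 1 mM BL, collected after 1 h or 8 h; the units are those of the labels. The labels name no rhizobia, and do not say which organs of the seedling were collected or whether libraries came from separate plants. In RNA of a mixed tissue, fewer cells that carry a transcript and less of it per cell cannot be told apart.

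Levels are in FPKM, a measure of transcript abundance per unit of transcript length and of sequencing depth, with 1 value per group pooled by the authors, so that no spread between libraries can be shown and the depth is unknown. Because FPKM is per length, levels of different genes can be compared. Each of 4 tables sets 1 treated group against control, and a gene was called changed at the authors' q of 0.05 or less. The tables are named by their sheets: Pcz, Pcz-BL (low BL), Pcz-BL-1h (high BL, 1 h) and Pcz-BL-8h (high BL, 8 h). In the last 3 the column header names another group, so that by header the sheet Pcz-BL would hold 1 h of BL, the sheet Pcz-BL-1h would hold 8 h, and the sheet Pcz-BL-8h would hold a group headed Pcz-BL. Treatments below follow the sheet names, and which naming is right was not tested.

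NARK was the most abundant of the 5 transcripts in control seedlings and fell in 3 of the 4 treated groups. In the authors' deposited tables its control level was 4.21, 3.62, 3.63 and 2.996 FPKM in the order of the sheets, while the treated level was 0.791 FPKM with Pcz, 0.984 FPKM with Pcz and low BL, 3.03 FPKM after 1 h of high BL and 0.402 FPKM after 8 h. The 1 h group was thus the only treated group near its control, and the 8 h group was the lowest. Control values differ between tables, which were scaled separately. Over genes of at least 1 FPKM the control column of Pcz-BL-8h was 0.829 times that of Pcz-BL at the median, and for NARK the ratio was 0.827. The control column of the Pcz table departed from the others gene by gene, and NARK stood at 0.862 times its Pcz-table control in the Pcz-BL table, against a median of 1.01.

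With the inhibitor alone, NARK was at 18.8% of control (95% interval 9.86% to 35.9%). The log2 fold change in the authors' deposited table was -2.41, with a standard error of 0.475 taken from their test statistic and q = 0.000188 from their Cuffdiff test. Of the 33690 genes tested, 53.4% were called changed and 28.4% called lower, so a call by itself was common. In size, 8.70% of tested genes had a lower fold change than NARK. With Pcz and low BL the level was 27.1% of control (13.9% to 52.9%), the authors' deposited table giving a log2 fold change of -1.88 (standard error 0.492, Cuffdiff q = 0.000314). There, 36.2% of 35343 tested genes were called, 22.8% lower, and 8.08% had a lower fold change.

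After 1 h of high BL, NARK was at 83.5% of control (53.8% to 130%) and was not called, with a log2 fold change of -0.26, a standard error of 0.324 and a Cuffdiff q of 0.239 in the authors' deposited table. The interval allows a fall to 53.8% as well as a rise. Of the 36884 genes tested there, 52.1% were called, and 25.6% were called higher. After 8 h, NARK was at 13.4% of control (6.04% to 29.8%), with a log2 fold change of -2.90 (standard error 0.587, Cuffdiff q = 0.000181) in the authors' deposited table. Here 56.5% of 34619 tested genes were called, 30.7% lower and 25.8% higher, and 4.57% lay below NARK. By column header, the group in which NARK was near control would be the 8 h group.

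**Figure D1:**
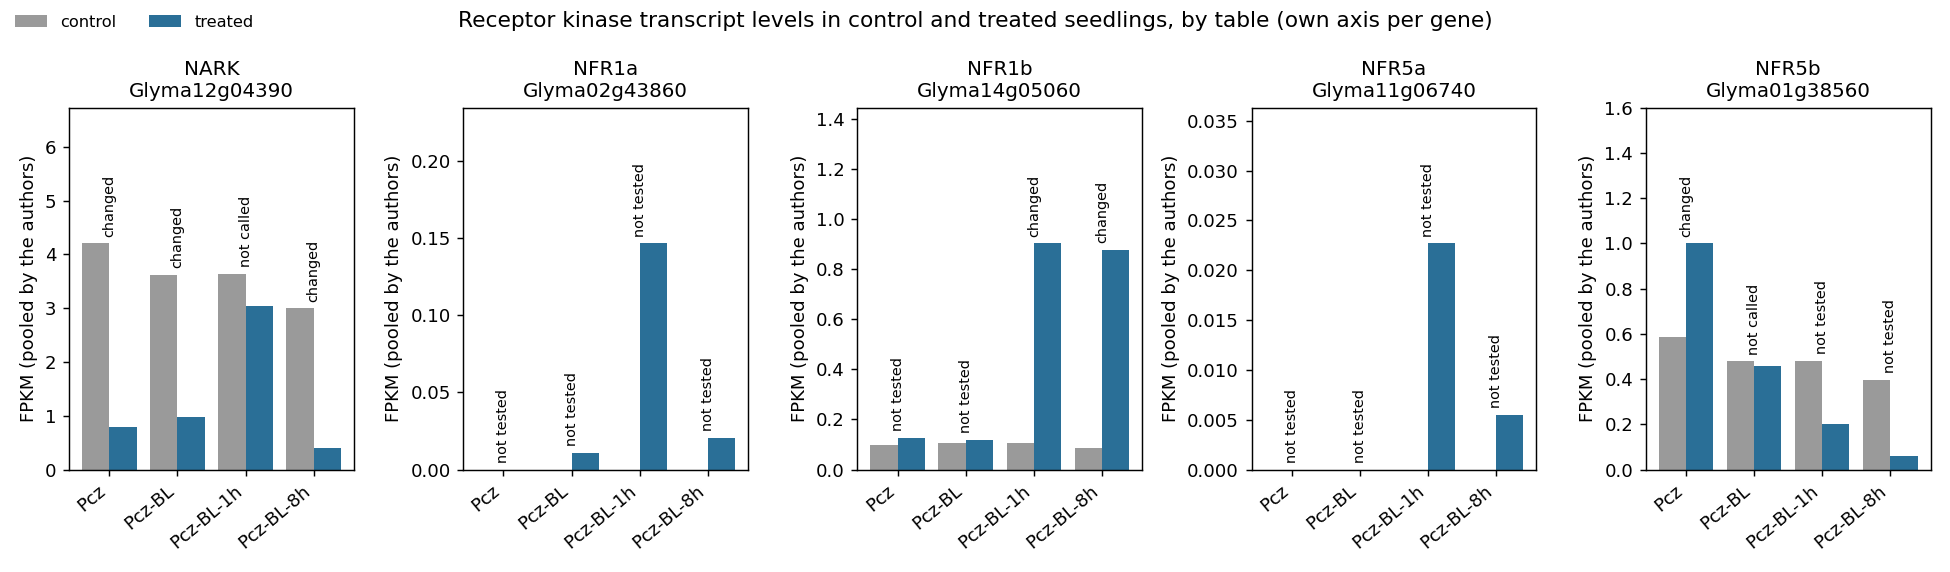
Pooled FPKM of each of the 5 genes in control (grey) and in the treated group (blue) of each table, each gene on its own axis; a word above each pair gives the outcome of the authors' test, and there are no error bars because the values are pooled. NARK fell in every treated group but Pcz-BL-1h, where 3.03 FPKM stood beside 3.63 in control. NFR1b was called higher in both high-BL groups by sheet name, but reached at most 0.904 FPKM and lost both calls with p from the normal distribution.

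The treated groups were then compared with each other for NARK, by subtracting the log2 fold change of one table from that of another. Subtraction removes a scaling common to all genes of a table, but not the gene-by-gene departure of the Pcz control column. Contrasts with Pcz therefore carry that departure: against the scaled control column of Pcz-BL, the NARK log2 fold change in Pcz was -2.18 in place of -2.41. A z test was run over all genes tested in both tables, with Benjamini-Hochberg adjustment over all of them. The series has 1 control group, and errors are not independent where tables share control libraries, which the test does not take into account. The control columns of Pcz-BL-1h and Pcz-BL-8h differed by a nearly constant factor (standard deviation of the log2 ratio 0.00706), so these tables appear to share theirs. The threshold of the test was an adjusted value of 0.05. The log2 fold change after 1 h of high BL was higher than with Pcz alone by 2.15 (standard error 0.575) and passed that threshold, a 4.44-fold difference with a 95% interval of 2.03 to 9.70. Of 32641 genes, 25.5% differed in this contrast and 15.3% were higher. Between 8 h and 1 h of high BL the difference was -2.64 (standard error 0.671), also past the threshold, so that NARK relative to control was 6.22-fold lower at 8 h (2.50 to 15.5). This contrast called 7.53% of 33792 genes, 4.94% lower, and 3.36% had a lower difference than NARK.

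Low BL with Pcz did not differ from Pcz alone for NARK beyond the error. The difference of 0.53 had a 95% interval of -0.81 to 1.87 and missed the threshold of the z test, by which 5.18% of 32959 genes differed. The 8 h group did not differ from Pcz alone either, at -0.49 (interval -1.97 to 0.99), while 34.3% of 32109 genes passed in that contrast. Both intervals are wide: on the fold scale they run from 0.570 to 3.66 and from 0.256 to 1.99. Among the groups none had a mock addition after Pcz, so an effect of BL on NARK and one of the addition or its timing cannot be told apart.

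**Figure D2:**
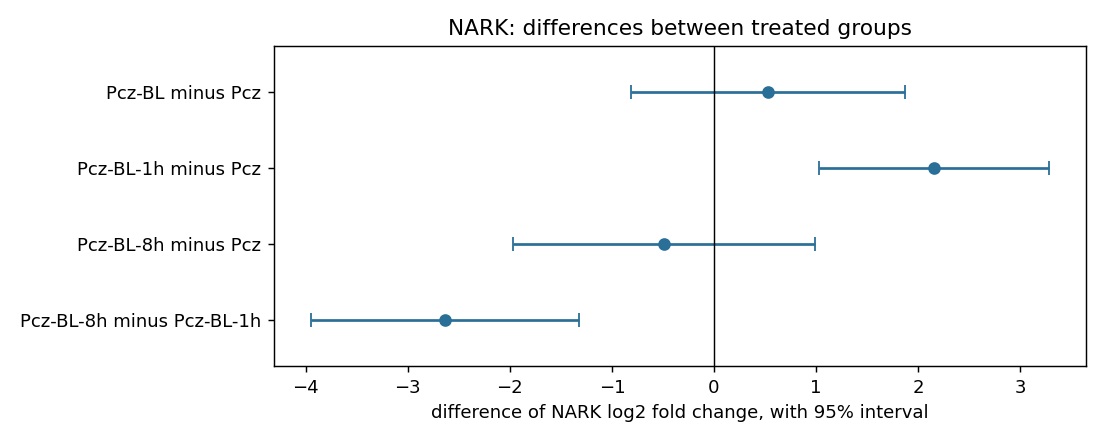
Difference of the NARK log2 fold change between pairs of treated groups (x axis), with 95% intervals from the authors' test statistics. Pcz-BL-1h stands 2.15 above Pcz and Pcz-BL-8h stands 2.64 below Pcz-BL-1h, and the intervals of the other pairs span 0.

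NFR1b, the LysM receptor copy on chromosome 14, was scarce in control and rose in both groups given high BL. Its control level was 0.0974, 0.105, 0.105 and 0.0875 FPKM in the authors' deposited tables, below NARK by 43.2-fold in the Pcz table and by 34.3-fold in the Pcz-BL-8h table. The treated level was 0.125 FPKM with Pcz, 0.117 FPKM with low BL, 0.904 FPKM after 1 h of high BL and 0.877 FPKM after 8 h. The first pair of treated values lay close to control and the second pair far above it. By column header, the raised groups would be the 8 h group and the one headed Pcz-BL. The 1 h group would then be at 0.117 FPKM, close to control.

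After 1 h, NFR1b was 8.58-fold above control (95% interval 1.497 to 49.2), with a log2 fold change of 3.10, a standard error of 1.29 and a Cuffdiff q of 0.000514 in the authors' deposited table. At 8 h it was 10.03-fold above control (1.30 to 77.3), with a log2 fold change of 3.33, a standard error of 1.503 and a Cuffdiff q of 0.000784 in the authors' deposited table. These intervals span more than 10-fold, and the size of the rise is poorly fixed. When p was computed from the same test statistic as a normal deviate, neither rise passed the threshold. The difference between 8 h and 1 h was 0.22 (interval -3.65 to 4.10) and missed the threshold of the z test.

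In the Pcz and Pcz-BL tables NFR1b had the status of a gene that Cuffdiff does not test, which it assigns where too few fragments are found, so its small changes there have no test. A gene that is testable only where a treated group is high is bound to be called higher often: of 838 genes tested in both high-BL tables and in neither other one, 75.9% were called higher at 1 h and 70.2% at 8 h. The rise of NFR1b is read against those shares.

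NFR1a, the second copy of that receptor, was listed at 0 in all 4 control columns and tested in none of the tables. Treated levels in the authors' deposited tables were 0 FPKM with Pcz, 0.0105 FPKM with low BL, 0.147 FPKM after 1 h of high BL and 0.0204 FPKM after 8 h. The value at 1 h was the highest, and no fold change is given against a group listed at 0. NFR1b made up 86.0% of the summed NFR1 level after 1 h and 97.7% after 8 h, so that the larger value belonged to copy b in every group where either copy was listed above 0. No error can be put on these shares. The copies are close in sequence, and how the authors assigned fragments that fit both is not given in the sources used here, so the split between copies is uncertain.

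**Figure D3:**
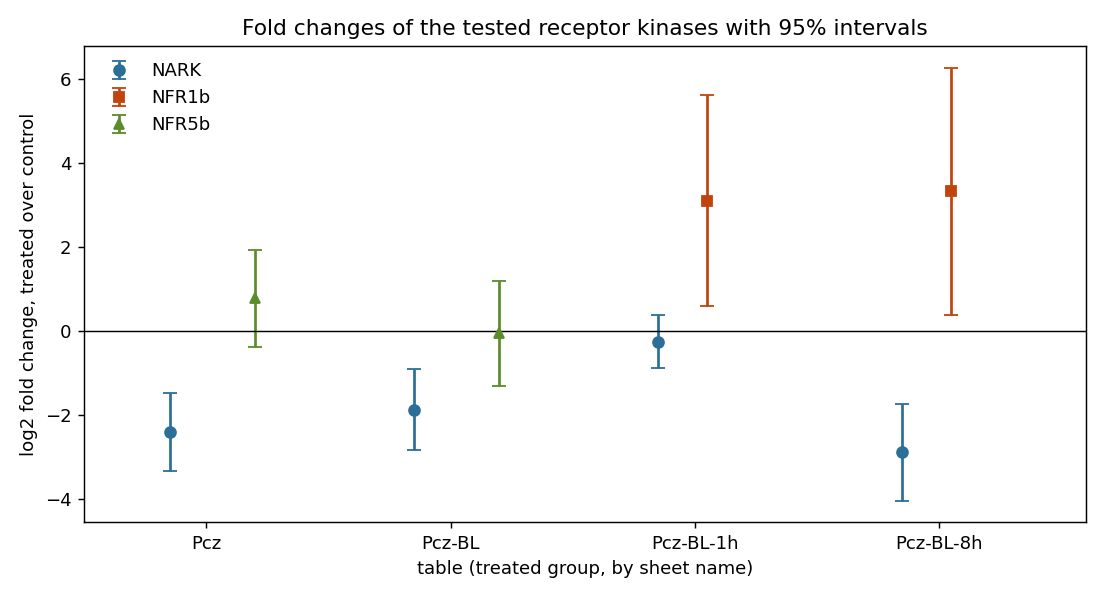
Log2 fold changes over control of the 3 genes that were tested in at least 1 table, with 95% intervals from the authors' test statistics; NFR1a and NFR5a were tested in none. The NARK intervals lie below 0 in every table but Pcz-BL-1h, those of NFR1b lie above 0 and are wide, and those of NFR5b span 0.

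NFR5b, the copy of the second Nod factor receptor on chromosome 1, had levels that ran differently over the groups from those of NFR1b. No table tested both genes, so this contrast of levels was not tested. Its control level was 0.587, 0.479, 0.480 and 0.396 FPKM in the authors' deposited tables, between NARK and NFR1b. The treated level was 1.00 FPKM with Pcz, 0.457 FPKM with low BL, 0.201 FPKM after 1 h of high BL and 0.0601 FPKM after 8 h. Only the Pcz group was above its control, and the high-BL groups were the lowest. By column header, the lowest would be the 8 h group and the one headed Pcz-BL.

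With Pcz alone NFR5b rose 1.70-fold, with a log2 fold change of 0.77 (standard error 0.590) and a Cuffdiff q of 0.0337 in the authors' deposited table, where 24.9% of tested genes were called higher. Its 95% interval of 0.765 to 3.80-fold includes no change, and the call was lost with a q threshold of 0.01 and with p from the normal distribution of the statistic. With low BL it was at 95.6% of control (40.1% to 228%) and was not called (Cuffdiff q = 0.916 in the authors' deposited table). The difference between these 2 groups was -0.83 on the log2 scale (interval -2.54 to 0.87) and missed the threshold of the z test, so it was not shown that they differ. After 1 h and 8 h of high BL the levels were 41.9% and 15.2% of control, but neither was tested by the authors' program, and these ratios carry no error. In rank the treated values hardly differed: NFR5b stood above 26.7% of all IDs at 1 h and above 26.5% at 8 h. The further fall in FPKM from 1 h to 8 h was thus not seen in rank. As for NARK, the Pcz table gave NFR5b a high control: in the Pcz-BL table it stood at 0.815 times that value.

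NFR5a on chromosome 11 was listed at 0 in every control column and in the groups given Pcz alone or with low BL. The authors' deposited tables list it at 0.0227 FPKM after 1 h of high BL and at 0.00545 FPKM after 8 h. The value at 8 h is the lowest above 0 among the 5 genes, and NFR5a was tested in no table. In rank the order was reversed, with NFR5a above 17.5% of all IDs at 1 h and above 19.9% at 8 h. So the FPKM values do not show a lower level at 8 h. Where both copies were listed, NFR5b was 8.86-fold above NFR5a at 1 h and 11.02-fold above it at 8 h. Because NFR1a and NFR5a were never tested, the fold changes of the copies could not be compared with an error.

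The order of the 5 levels changed between groups. In each control column it was NARK, NFR5b, NFR1b, with NFR1a and NFR5a at 0. With Pcz alone NFR5b stood above NARK (1.00 against 0.791 FPKM), and with low BL the control order returned except that NFR1a was listed above 0. After 1 h of high BL the order was NARK, NFR1b, NFR5b, NFR1a, NFR5a, with NFR1b at 4.49 times NFR5b. At 8 h NFR1b was the highest, at 2.18 times NARK, followed by NARK, NFR5b, NFR1a and NFR5a. Without values per library, none of these steps in the order could be tested. Compared with all 54175 IDs, NARK ranked above 61.4% to 64.0% of them in the control columns, NFR5b above 38.4% to 40.3% and NFR1b above 27.8% to 28.1%.

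Over the 4 tables the 5 genes made 20 gene-by-table entries, of which 8 were tested and 6 called, 3 lower and 3 higher. Over all tested genes the called shares were 53.4%, 36.2%, 52.1% and 56.5% in the order of the sheets, so calls in most entries are not particular to these genes. All 3 lower calls were NARK, and the higher calls were NFR5b in Pcz and NFR1b in both high-BL tables, where 75.9% and 70.2% of the genes testable only there were higher. Every table tested 2 of the 5 genes. Their median log2 fold change was -0.82, -0.97, 1.42 and 0.21 in the order of the sheets, against 0.01, -0.13, -0.07 and -0.10 over all tested genes with a finite fold change. With 2 genes that passed the test's own filter, such a median describes the pair and not the list.

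**Figure D4:**
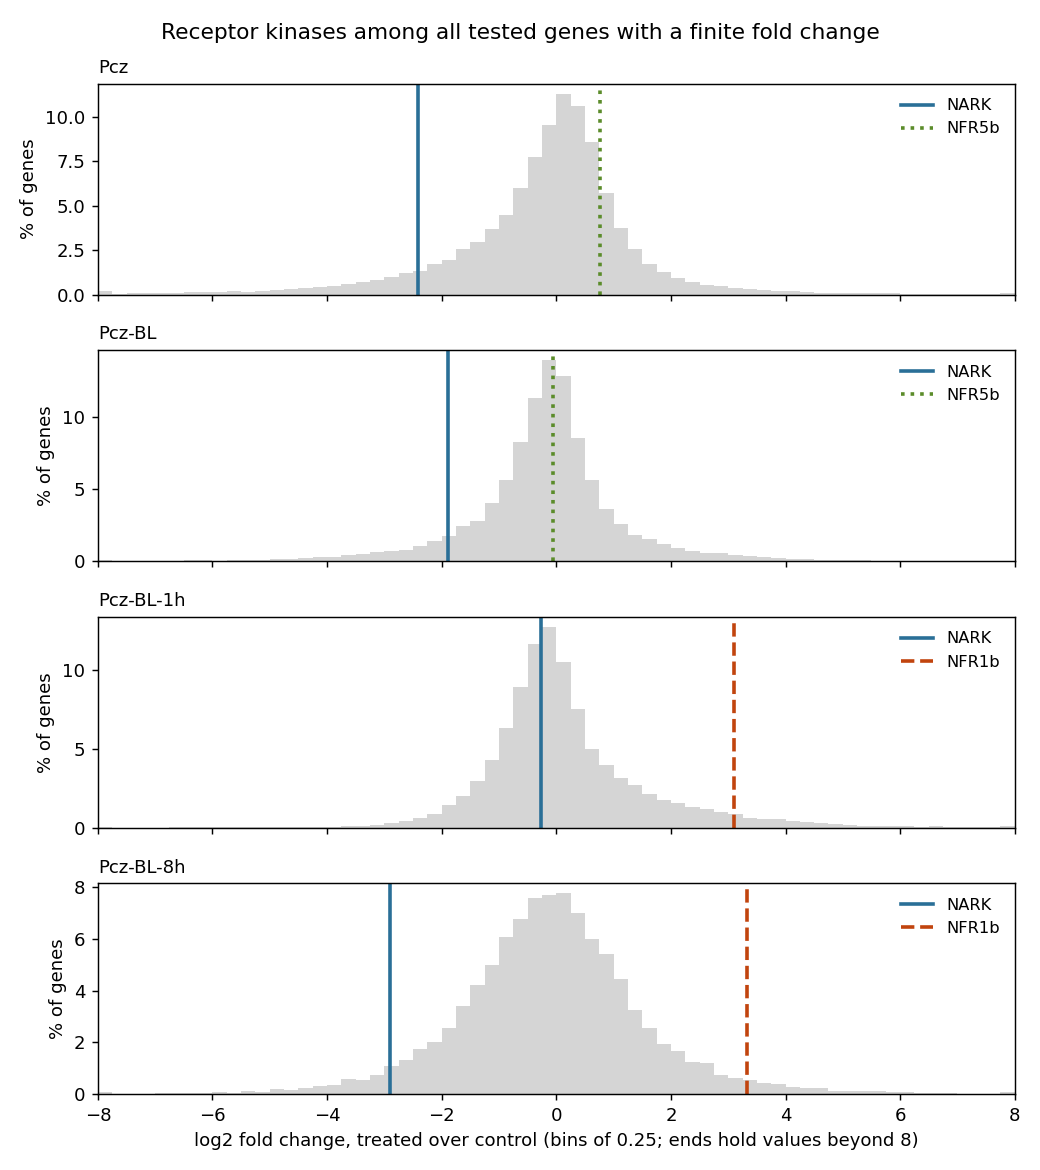
Distribution of the log2 fold change over all tested genes in each table (grey, percent of genes per bin of 0.25), with NARK, NFR1b and NFR5b as vertical lines where they were tested. NARK lies in the lower tail with 8.70%, 8.08% and 4.57% of genes below it in Pcz, Pcz-BL and Pcz-BL-8h, and near the centre in Pcz-BL-1h.

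The authors also deposited 4 short gene lists. Each was found to hold exactly the genes with the smallest deposited p, 5e-05, and an absolute log2 fold change of at least 2, so a list is stricter than the calls used here. NARK is in the lists of Pcz and Pcz-BL-8h and misses that of Pcz-BL, where its log2 fold change was -1.88. NFR1b is in no list although its fold changes are above that minimum, since its deposited p was 0.00015 at 1 h and 0.00025 at 8 h. The 3 other genes are in none.

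The gene whose 4 fold changes were most like those of NARK was Glyma17g04840 on chromosome 17. The files give it no name, and its ID has no match in the reference, so a name could not be looked up. Likeness was the Euclidean distance over the 4 log2 fold changes, among 30107 other genes tested in all tables with a mean of at least 1 FPKM. In the authors' deposited tables its log2 fold changes were -1.97, -1.87, -0.14 and -2.86, and its mean level over the 5 groups was 2.64 FPKM against 1.77 for NARK. The distance was 0.462, against a median of 4.26, and 12 genes lay within a distance of 1. NARK was the single member tested in all 4 tables, so no such neighbour is given for the others.

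Genes next to NARK on chromosome 12 were counted in the same tables. Of the 5 loci on each side, within 72.1 kb, 2 of 7 tested were called with Pcz, 2 of 7 with low BL, 4 of 8 after 1 h of high BL and 5 of 8 after 8 h, against 53.4%, 36.2%, 52.1% and 56.5% of all tested genes. The called neighbours went both ways, with 2, 1, 2 and 2 lower and 0, 1, 2 and 3 higher. Around NFR1b, 4 of 6 tested neighbours were called with Pcz, 2 of 8 with low BL, 3 of 6 after 1 h of high BL and 4 of 6 after 8 h, against those same shares. After 1 h, 1 was higher and 2 were lower, and after 8 h, 2 were higher and 2 lower.

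**Figure D5:**
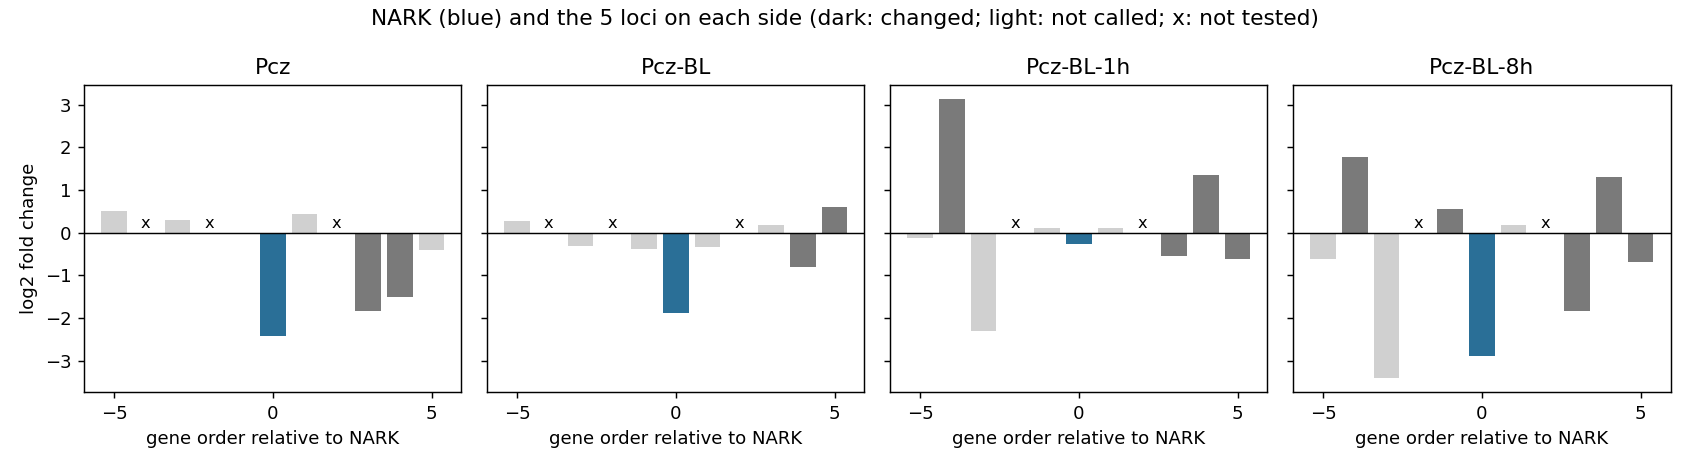
Log2 fold change of NARK (blue, position 0) and of the 5 loci on each side in gene order, in each table; dark bars were called changed, light bars were not, and x marks loci that were not tested. In Pcz and Pcz-BL the NARK bar reaches -2.41 and -1.88, below each tested neighbour shown, while in Pcz-BL-1h and likewise in Pcz-BL-8h the locus at position -3, not called, lies lower than NARK (-2.30 against -0.26, and -3.41 against -2.90).

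Of the other symbols of the nodulation pathway and the marker genes listed for lookup, 26 in all and among them CLV1A, NIN, NSP1, RIC1 and the leghaemoglobins, 10 are in the reference gene table, but none is paired there with an ID of the files. None of the 54175 IDs matched that table. Their values are therefore not analysed here, and neither was the organ make-up of the samples checked by markers.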

How the data were processed

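Messenger RNA of 15 soybean seedling libraries (5 groups of 3) was sequenced after stranded TruSeq preparation, per the labels' protocols. The authors deposited 4 full tables with the column names of Cuffdiff, per the file headers. Each holds FPKM pooled to 1 value per group, a log2 fold change (infinite or a spreadsheet error where a group is at 0), a score that is the Cuffdiff test statistic, and its p-value and q-value as deposited by the authors. The smallest deposited p is 5e-05. Which aligner, build, annotation and program version were used is not given in the sources used here. There is no column for any single library.

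Columns were read by sheet name. The standard error is the absolute ratio of fold change to test statistic, and 95% intervals are normal. Differences between tables were tested by a z test over all genes tested in both, adjusted by Benjamini-Hochberg. The calculation was also run on simulated fold changes with independent normal errors, which is what the test assumes. That run cannot show whether the assumption holds for these tables, and errors from shared control libraries were not simulated. Percentages of control are treated over control FPKM of the same table. Software was Python 3.11.15, pandas 2.3.3, numpy 2.4.6, scipy 1.17.1 and matplotlib 3.10.9. All 5 genes are named; the rule for likeness asked for the nearest ID to each member tested in all tables. The members, lists and tests were chosen with earlier results of these data known. Replicates are not known to be separate plants, so any spread between libraries that enters the p-values may be technical. How far the deposited p-values rest on that spread is not given in the sources used here. Alternatives were other thresholds, other p-values, an FPKM minimum, pseudocounts of 1 and 0.1, centring and assignment by column header.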

Additional observations from a re-analysis of the deposited data

Results flagged for a closer look

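NARK differed between the 2 times of high BL: its log2 fold change against control was lower at 8 h than at 1 h by -2.64 (standard error 0.671), past the adjusted threshold of 0.05 of the z test over 33792 genes. Both fold changes are against the control group, and the tables follow the sheet names, under which the direction from 1 h to 8 h was read. By column header, the table taken here as 8 h would be a group headed Pcz-BL, and the one taken as 1 h would be the 8 h group.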

How the results depend on the processing

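NARK kept its calls in Pcz, Pcz-BL and Pcz-BL-8h under each change of threshold, p-value, adjustment and FPKM minimum tried. In Pcz the number of genes called fell from 2 to 1 with q of 0.01 or less, with a 2-fold minimum and with p from the normal distribution, NFR5b being lost; over all genes these settings called 14254, 11160 and 11480, against 17974. With the normal distribution, or with at least 1 FPKM in either group, the number fell from 1 to 0 in Pcz-BL-1h and likewise from 2 to 1 in Pcz-BL-8h, NFR1b being lost; over all genes the normal distribution then called 10822 genes at 1 h and 10679 at 8 h, and the FPKM minimum 18023 and 18517, against 19229 and 19563. In Pcz-BL the normal distribution called 5523, against 12797. By column header 2 genes (NARK and NFR1b) would be changed in Pcz-BL in place of 1, 1 (NARK) in Pcz-BL-1h, and 1 (NFR1b) in Pcz-BL-8h in place of 2. As a ratio of treated FPKM across tables, 1 gene (NFR5b) differed at least 2-fold between Pcz-BL and Pcz, where the z test called 0; the other comparisons of treated groups kept their counts. Of 26 recomputed fold changes 25 kept their sign, the exception being NFR5b in Pcz-BL (0.07 when centred), and 5 moved by more than a standard error with a pseudocount of 1, in the order NARK in Pcz (-1.54), Pcz-BL (-1.22) and Pcz-BL-8h (-1.51) and NFR1b after 1 h (0.78) and 8 h (0.79) of high BL. Against the scaled control column of Pcz-BL, an alternative chosen after seeing the data, NARK in Pcz was -2.18 and NFR5b 1.08. By correlation over the tables in place of distance, Glyma17g04840 ranked 88 among the genes most like NARK. The cause of these changes was not tested. No paired analysis was possible because the columns carry pooled groups with no replicate number, and for the same reason leaving out each library was not run. The differences between copies of NFR1 and NFR5 have no error, since copy a was never tested; at 8 h, b minus a was 0.76 for NFR1 and -0.41 for NFR5 with a pseudocount of 1, and 2.11 and -1.71 with 0.1.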
